A study of Mus musculus with 16 samples.

Results

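Transcripts of 10 endothelial genes were followed in mouse femoral cortical bone: Pecam1, Cdh5, Esam, Kdr, Flt1, Tek, Tie1, Eng, Emcn and Robo4. They were picked by gene symbol from the 36829 features in the RNAseq tables, and all 10 were among the 16973 that averaged 0.5 RPKM or more over the mice. RPKM is a count of reads on a gene, scaled to gene length and library size. The 16 female C57Bl/6 mice were 11 weeks old, and none carried an allele or received a drug named in the labels. In 8 mice the hindlimbs were lifted off the ground by a tail harness for 7 days (hindlimb unloading, HLU), and the 8 control mice bore weight normally. The bone ends were cut off, the marrow was flushed out with saline, and total RNA of what remained was sequenced as 1 library per mouse, so cells left by the flush were part of each sample.

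Endothelial cells line blood vessels and are joined to each other by adhesion molecules at their borders. They respond to vascular endothelial growth factor (VEGF), angiopoietins, ligands of the TGF-beta family and guidance cues through receptors, some of which other cells also make. In bone, capillaries run through the cortex and along its surfaces, and the vessels rich in endomucin and PECAM1 lie where bone is being formed.

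All 10 transcripts were detected in all 16 mice, with 86 to 3954 reads per gene and mouse. The osteocyte and osteoblast markers (14 of 14 measured) summed to 996 to 3000 RPKM per mouse, so the bone itself was well represented. Markers of neutrophils, cells of the marrow, summed to 12600 to 45000 RPKM in the same libraries. Libraries held 7067512 to 21363584 reads (medians 15814646 in control and 16392467 in HLU), and 3 reads on a gene of 1 kb corresponded to 0.140 RPKM in the deepest and 0.424 RPKM in the shallowest. No pair among the 16 libraries held identical values.

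Pecam1 and Cdh5, genes of the junctions between endothelial cells, were the most abundant of the set. Pecam1 (chromosome 11, 106654217 to 106750628, minus strand, in GRCm38, the build of all positions given here) encodes an adhesion molecule of endothelial borders that platelets and leukocytes also carry. Its level ran from 18.4 RPKM through a median of 22.4 to 25.0 in control mice and from 19.3 through 25.2 to 27.8 in HLU mice. In 4 HLU mice Pecam1 lay above every control, yet the other 4 lay inside the control range. The mean was 22.3 ± 2.18 RPKM in control and 24.4 ± 3.41 in HLU (SD, n = 8 each). HLU was thus higher by 0.12 on the log2 scale (SE 0.10, 95% interval -0.09 to 0.34, exact permutation p = 0.181). Because this is RNA of a whole tissue, fewer cells of a type and less RNA per cell cannot be told apart, here and for every gene below.

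Cdh5 (chromosome 8, 104101625 to 104144511, plus strand) encodes VE-cadherin, the cadherin of endothelial adherens junctions. Its level ran from 13.0 RPKM through 18.2 to 21.9 in control and from 15.9 through 21.1 to 25.4 in HLU. The HLU mice tended to sit high, with 6 of 8 above the control median and 3 above every control, but the groups overlapped. From 17.8 ± 2.70 RPKM in control to 20.6 ± 3.56 in HLU, the log2 fold change was 0.21 (SE 0.13, 95% interval -0.06 to 0.47, exact permutation p = 0.109). An antisense gene, Gm29682, overlaps Cdh5 in the annotation, and no source used here says whether reads were counted by strand, so reads of both would be indistinguishable.

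Esam (chromosome 9, 37528078 to 37538319, plus strand) encodes an adhesion molecule of endothelial tight junctions, also found on platelets. It spread far more widely than the other junction genes, from 5.98 RPKM through 11.5 to 15.4 in control and from 7.65 through 9.33 to 14.3 in HLU. Every HLU mouse fell inside the control range. Esam had a log2 fold change of -0.07 (SE 0.21, 95% interval -0.52 to 0.37, exact permutation p = 0.739).

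Of the VEGF receptors, Kdr (chromosome 5, 75932827 to 75978458, minus strand) encodes the receptor that carries most VEGF signalling in endothelium. It was one of the steadiest of the 10 genes in control mice, from 9.06 RPKM through 9.93 to 11.3. In HLU it ran from 8.53 through 10.2 to 14.1, with 1 mouse, HLU 5, far above the control group and 1 just below it. HLU and control differed by 0.05 on the log2 scale for Kdr (SE 0.10, 95% interval -0.16 to 0.26, exact permutation p = 0.571). Flt1 (chromosome 5, 147561604 to 147726011, minus strand) encodes the receptor that binds VEGF tightly and limits its action. It ran from 4.49 RPKM through 5.33 to 6.87 in control and from 3.94 through 6.47 to 7.89 in HLU, with 3 HLU mice above and 1 below the whole control group. Its log2 fold change was 0.15 (SE 0.14, 95% interval -0.15 to 0.45, exact permutation p = 0.279).

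Tek and Tie1 form the angiopoietin receptor pair. Tek (chromosome 4, 94739289 to 94874976, plus strand) encodes TIE2, which binds the angiopoietins, and Tie1 (chromosome 4, 118471191 to 118490061, minus strand) encodes its partner, which has no such ligand of its own. Their promoters are printed because the related receptors share a chromosome and cell type. On the deposited RPKM their levels had Pearson's r = 0.31 over 16 mice after subtracting group means. With the GC trend of each library, described below, taken out, r was 0.71. The windows run 5′ to 3′ from 250 bases before to 50 bases after the RefSeq start (GRCm38.p6), at chr4:94739039-94739338 for Tek and chr4:118489800-118490099 for Tie1. Capitals mark CAGGAA or its reverse complement TTCCTG, a form of the GGAA core bound by ETS factors. Other GGAA sites are not marked, such as the ggaa in gcggaagc of the Tie1 window.
Tek promoter: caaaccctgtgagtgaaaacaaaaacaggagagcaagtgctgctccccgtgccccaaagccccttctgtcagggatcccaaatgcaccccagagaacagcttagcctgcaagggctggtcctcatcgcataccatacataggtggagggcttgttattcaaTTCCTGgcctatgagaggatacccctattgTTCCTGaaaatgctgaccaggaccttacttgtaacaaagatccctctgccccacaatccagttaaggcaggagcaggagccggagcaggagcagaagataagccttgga
Tie1 promoter: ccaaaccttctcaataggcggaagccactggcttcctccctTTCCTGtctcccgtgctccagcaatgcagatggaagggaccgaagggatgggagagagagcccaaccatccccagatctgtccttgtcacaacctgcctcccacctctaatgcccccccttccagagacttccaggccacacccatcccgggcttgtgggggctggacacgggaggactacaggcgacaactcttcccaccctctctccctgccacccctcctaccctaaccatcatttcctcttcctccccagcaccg
Both windows held the CAGGAA motif, as did 5 of the 7 promoters of the set with a sequence (Eng, Emcn, Tek, Tie1 and Robo4, but not Kdr or Flt1) and 30.6% of 32851 promoters of the same length, both strands searched. Other forms of the GGAA core were not searched for.

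Tek was narrow in control mice, from 4.33 RPKM through 5.04 to 5.42, and broad in HLU, from 4.02 through 5.56 to 8.25. In 5 HLU mice it lay above every control, and in 1 below. The log2 fold change was 0.11 (SE 0.12, 95% interval -0.14 to 0.37, exact permutation p = 0.358). Tie1 was broad in both groups, from 2.17 RPKM through 3.96 to 5.76 in control and from 2.13 through 3.69 to 5.67 in HLU. Its groups overlapped almost entirely, with a log2 fold change of -0.05 (SE 0.25, 95% interval -0.57 to 0.47, exact permutation p = 0.846).

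Eng (chromosome 2, 32646595 to 32682669, plus strand) encodes endoglin, a coreceptor for TGF-beta family ligands, and Emcn (chromosome 3, 137341067 to 137432185, plus strand) encodes the sialomucin endomucin. A stretch of the coding sequence of both and of the TIE receptors, bases 301 to 450 from the start codon in GRCm38, shows how the genes differ in base composition, which is taken up again with the differences between mice. G and C are in capitals.
Eng: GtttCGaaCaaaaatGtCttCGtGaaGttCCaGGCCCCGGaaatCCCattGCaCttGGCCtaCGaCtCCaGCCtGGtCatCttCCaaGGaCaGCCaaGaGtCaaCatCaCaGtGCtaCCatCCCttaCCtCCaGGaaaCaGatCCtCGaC
Tie1: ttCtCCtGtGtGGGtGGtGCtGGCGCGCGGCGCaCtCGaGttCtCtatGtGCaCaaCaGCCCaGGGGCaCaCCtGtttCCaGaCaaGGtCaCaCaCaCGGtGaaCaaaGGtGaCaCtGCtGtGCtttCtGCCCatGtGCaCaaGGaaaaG
Tek: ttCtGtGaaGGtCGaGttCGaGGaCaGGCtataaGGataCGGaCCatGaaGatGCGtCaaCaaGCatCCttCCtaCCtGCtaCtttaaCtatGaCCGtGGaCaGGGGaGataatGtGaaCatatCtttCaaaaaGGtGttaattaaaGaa
Emcn: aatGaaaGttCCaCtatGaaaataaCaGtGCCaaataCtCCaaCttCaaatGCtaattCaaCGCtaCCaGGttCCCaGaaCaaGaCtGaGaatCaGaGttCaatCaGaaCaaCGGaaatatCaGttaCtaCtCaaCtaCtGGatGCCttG
G and C made up 51.3% of this stretch in Eng, 56.7% in Tie1, 42% in Tek and 38.7% in Emcn. Over the longest annotated transcript the shares were 57.4%, 57.6%, 47.1% and 40.7%.

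Eng varied more between mice than any other gene of the set. It ran from 2.56 RPKM through 4.94 to 8.46 in control and from 1.91 through 5.41 to 7.12 in HLU, so that its highest mouse was 4.42 times its lowest. The log2 fold change was -0.04 (SE 0.31, 95% interval -0.69 to 0.61, exact permutation p = 0.909). Reads of the small RNA genes Mir1954, Gm47291 and Gm26236 inside Eng, and of Fpgs at its end on the other strand, could fall on the same bases. Emcn stayed within 4.88 RPKM, a median of 6.48 and 7.10 in control and within 4.98, 6.21 and 7.67 in HLU. Its 3 highest mice were all unloaded, and the other 5 HLU mice lay below the control median. The log2 fold change was 0.07 (SE 0.12, 95% interval -0.19 to 0.32, exact permutation p = 0.552).

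Robo4 (chromosome 9, 37401897 to 37415115, plus strand) encodes a guidance receptor that stabilises vessels. It lies 113 kb from Esam, with 4 annotated genes between them. Robo4 was the least abundant of the set, from 1.54 RPKM through 2.67 to 3.44 in control and from 2.00 through 2.97 to 3.40 in HLU, and no HLU mouse left the control range. The log2 fold change was 0.21 (SE 0.20, 95% interval -0.21 to 0.63, exact permutation p = 0.304).

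**Figure D1:**
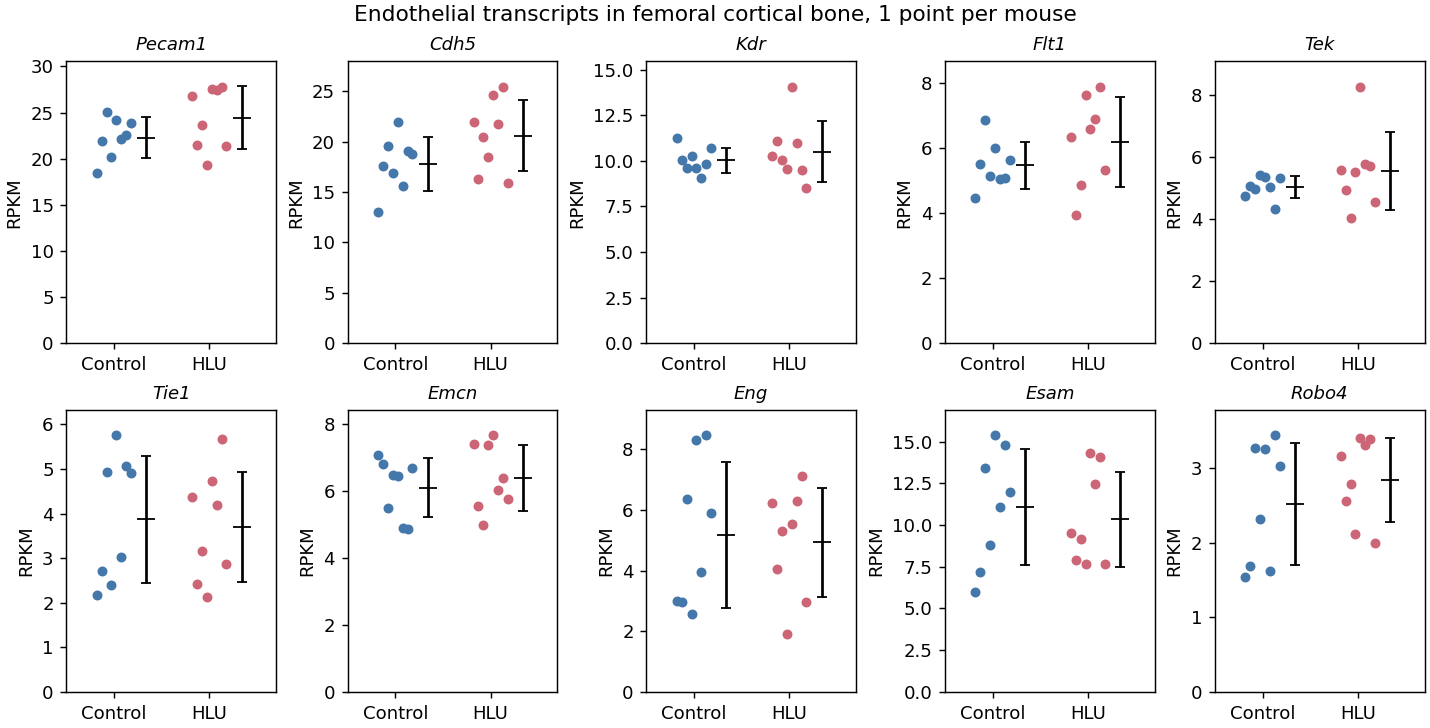
RPKM of each of the 10 endothelial genes (vertical axes, from 0) in 8 control mice (blue) and 8 HLU mice (red), 1 point per mouse, with the mean and SD as black bars. No gene separates the groups, Eng spans 1.91 to 8.46 RPKM over the 16 mice, and Kdr and Tek each have 1 high HLU mouse, at 14.1 and 8.25 RPKM.

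The order of the levels was steady at the top and loose in the middle. Pecam1 exceeded Cdh5, and Cdh5 exceeded Esam, in 16 of 16 mice. Esam exceeded Kdr in 8 mice and lay below it in the other 8. Kdr exceeded Emcn in all 16 mice, Emcn exceeded Flt1 in 10, Flt1 exceeded Tek in 12, and Tek exceeded Eng in 8. Eng then exceeded Tie1, and Tie1 exceeded Robo4, in 15 of 16 mice. Among all features kept, Pecam1 stood above 88.1% and Robo4 above 36.3%. RPKM rests on the gene length used by the authors, which the read steps put at 3327 bases for Esam and up to 12366 for Flt1, so the order depends on those lengths.

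None of the 10 genes passed an unadjusted p of 0.05 with a change of at least 1.2-fold by limma, where 5.87% of the 16973 features did (1.11% higher and 4.76% lower in HLU). No feature at all passed an adjusted p of 0.1 with that fold (limma with Benjamini-Hochberg adjustment), although 1049 had an unadjusted p under 0.05 at any fold, and voom, the limma method for counts, called 1. The lowest limma adjusted p among the 10 genes was that of Cdh5, 0.747. The changes were positive for 7 of the 10 (Pecam1, Cdh5, Kdr, Flt1, Tek, Emcn and Robo4), where 32.1% of all features were positive. Their median log2 fold change was 0.09, beside -0.10 for all features.

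How the libraries were scaled bore on these values. With median-of-ratios rescaling the median of all features was -0.01 instead of -0.10, and the features past the unadjusted threshold went from 188 higher and 808 lower to 381 higher and 395 lower. Under it Tie1, Eng and Esam, at -0.05, -0.04 and -0.07 on the deposited RPKM, stood at 0.04, 0.05 and 0.02, so no direction was established for those genes. Cdh5 passed the unadjusted limma threshold under this rescaling, with a log2 fold change of 0.30 (SE 0.13), as 2.24% of features did upwards, 2.33% downwards and 4.57% in all. Its limma adjusted p was 0.903.

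**Figure D2:**
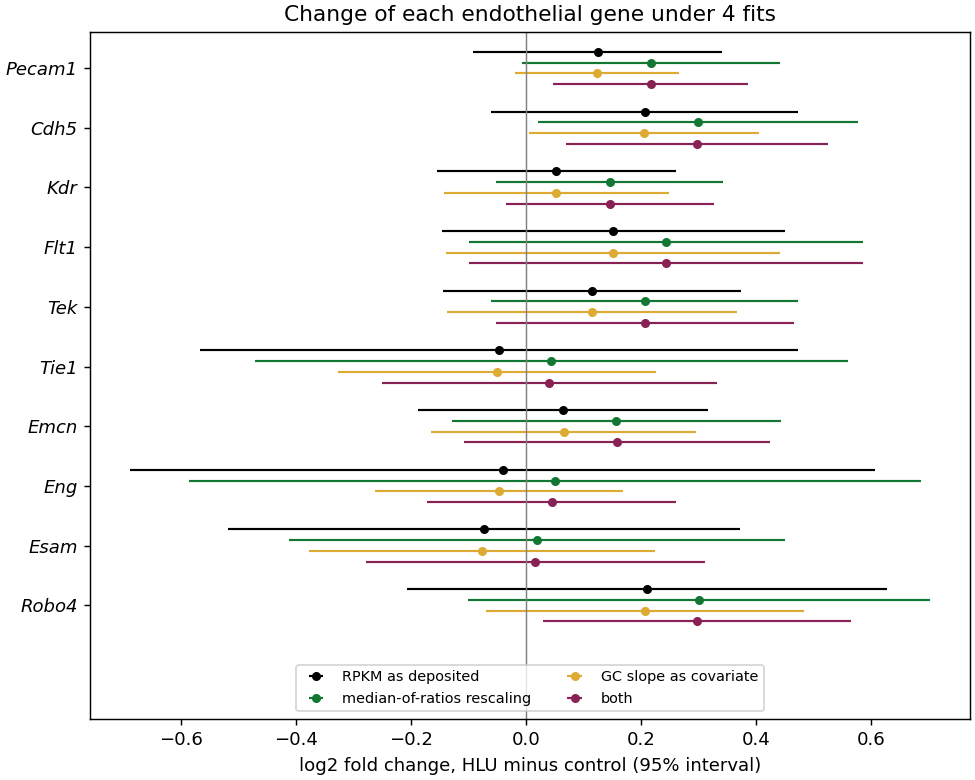
Log2 fold change (horizontal axis, HLU minus control) of each gene with its 95% interval from limma over 16 mice, for the RPKM as deposited (black), after median-of-ratios rescaling (green), with the GC slope of the library as covariate (yellow) and with both (purple). On the deposited RPKM all 10 intervals cross 0. The interval of Cdh5 lies above 0 in the other fits (limma adjusted p 0.421 to 0.903). Those of Pecam1 and Robo4 lie above 0 with both (limma adjusted p 0.515 and 0.527). Tie1, Eng and Esam lie below 0 only without the rescaling. The interval of Eng narrows from -0.69 to 0.61 to between -0.26 and 0.17 with the covariate.

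Of the other vessel genes, a few passed the unadjusted threshold, which 1.11% of all features passed as higher and 4.76% as lower. Of 11 ligands kept (VEGF, angiopoietin, Slit and related genes) 0 passed it in either direction, with a median log2 fold change of 0.03. Among 14 coreceptors and partners 1 was higher and 0 lower (median 0.10), and among 28 other pan-endothelial genes 2 were higher and 0 lower (median 0.01). The gene in both lists was Aplnr, the receptor for apelin, at 6.10 ± 1.19 RPKM in control and 7.79 ± 1.77 in HLU (log2 fold change 0.34, SE 0.15, exact permutation p = 0.0333, limma adjusted p = 0.744), with 7 of 8 HLU mice above the control median. The other was She, an adaptor protein gene, at 2.09 ± 0.297 and 2.78 ± 0.672 RPKM (log2 fold change 0.37, exact permutation p = 0.0183, limma adjusted p = 0.744). Of 12 arterial genes 0 passed in either direction (median 0.12), and of 11 venous, sinusoidal and lymphatic genes 0 were higher and 1 lower (median -0.13). That gene was Selp, the P-selectin of venous endothelium and platelets, at 5.71 ± 1.42 and 4.22 ± 1.24 RPKM (log2 fold change -0.45, exact permutation p = 0.0398, limma adjusted p = 0.744).

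The markers of blood and marrow cells that passed the unadjusted threshold were lower in HLU, as were 4.76% of all features, and none passed the adjusted one. Genes of perivascular cells, which lie around vessels, had 0 of 12 past the threshold (median 0.22). Megakaryocyte and platelet genes had 7 of 11 lower and 0 higher (median -0.55, summed level 1100 to 1840 RPKM in control and 492 to 1580 in HLU). They were led by Gp6, a platelet collagen receptor, at -0.73 and Pf4, a platelet chemokine, at -0.76 on the log2 scale. Itgb3, an integrin gene not confined to platelets, followed at -0.46. Genes of erythroid cells had 4 of 12 lower (median -0.58, 3150 to 8840 RPKM against 1710 to 4600), led by Hbb-b1 at -0.77, Klf1 at -0.69 and Hbb-b2 at -0.70, and those of stem and progenitor cells had 3 of 11 lower (median -0.30, 81.8 to 141 RPKM against 47.6 to 121), among them Tal1 at -0.73 and Lmo2 at -0.51. The limma adjusted p was 0.744 for all of these named genes. Neutrophil and macrophage genes had 0 of 10 and 0 of 11 past the threshold (medians -0.15 and -0.21), and no gene of these lists was at 0 in every mouse. Platelets carry Pecam1, Esam and Selp as well, and the part of the platelet genes in the endothelial values was not tested. With the erythroid and neutrophil levels of each mouse as covariates, the median log2 fold change of the 10 genes was 0.20 in place of 0.09, and that of Robo4 was 0.43 (SE 0.18, limma adjusted p = 0.283). Under these covariates Eng, Tie1 and Esam turned from -0.04, -0.05 and -0.07 to 0.42, 0.24 and 0.20, and Emcn, Kdr and Tek turned from 0.07, 0.05 and 0.11 to -0.15, -0.01 and -0.00. Osteocyte and osteoblast genes had 1 of 14 higher (Mepe, an osteocyte matrix protein gene, at 0.79) and adipocyte genes 1 of 7 higher (Fabp4, a fatty acid carrier, at 0.34), both with an limma adjusted p of 0.744.

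Between mice of the same group, 6 of the other 9 genes were correlated with Cdh5, and for Tek, Kdr and Emcn no correlation was shown. The measure was Pearson's r over 16 mice of log2(RPKM + 0.1) after subtracting the group mean, with Cdh5 as the fixed partner, and p from 100000 permutations of mice within groups, adjusted over all features. Tie1 had r = 0.87 with Cdh5 (permutation p = 4e-05, adjusted p = 0.00606), and Pecam1 had r = 0.86 (permutation p = 6e-05, adjusted p = 0.00633). Esam (0.85), Robo4 (0.82), Eng (0.74) and Flt1 (0.67) followed, with adjusted p up to 0.0338. For those 6 genes Spearman's rho was 0.68 to 0.89, its permutation p at most 0.00592, and r was 0.64 to 0.88 without the mice farthest from the median of Cdh5 (Control 1 and HLU 8). Such correlations were common in these libraries, since 20.1% of all features had a positive and 20.5% a negative r with Cdh5 at a permutation p under 0.05. An r as high as that of Tie1 was found in 0.554% of features, and one as high as that of Eng in 5.61%.

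For the remaining genes the correlation with Cdh5 was weaker and did not pass. Tek had r = 0.48 (permutation p = 0.0747, adjusted p = 0.164), Kdr 0.18 (permutation p = 0.571, adjusted p = 0.691) and Emcn 0.14 (permutation p = 0.611, adjusted p = 0.724). Spearman's rho was 0.48, -0.04 and 0.03, with permutation p of 0.0717, 0.887 and 0.912. Without Control 1 and HLU 8, r was 0.41, 0.18 and 0.31. Kdr had r = -0.47 with Cdh5 in control mice (exact permutation p = 0.235) and 0.45 in HLU mice (exact permutation p = 0.267), a difference that was not tested. Tie1, by contrast, had 0.87 in control (exact permutation p = 0.00193) and 0.88 in HLU (exact permutation p = 0.00588).

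Over the 45 pairs of the 10 genes r ran from -0.27 to 0.92, with a median of 0.48. Grouped after the values had been seen, and so given as a description, Pecam1, Cdh5, Tie1, Eng, Esam and Robo4 had 15 pairs between 0.74 and 0.92 (median 0.85). Kdr, Tek and Emcn had 3 pairs between 0.45 and 0.66 (median 0.63), and the 18 pairs across these groups had a median of 0.13. The 9 pairs with Flt1 ran from -0.11 to 0.67 (median 0.50). Tek and Tie1, the angiopoietin receptors, had r = 0.31. The pair farthest apart was Eng and Emcn, with r = -0.27. HLU 4 had the lowest Eng of all, 1.91 RPKM, beside 7.38 RPKM of Emcn. Control 7 had the highest Eng, 8.46 RPKM, beside the lowest Emcn, 4.88 RPKM. Other mice differed from this pattern, such as HLU 5, with the highest Emcn, 7.67 RPKM, beside 5.53 RPKM of Eng, and HLU 1, with 7.40 and 6.22 RPKM.

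**Figure D3:**
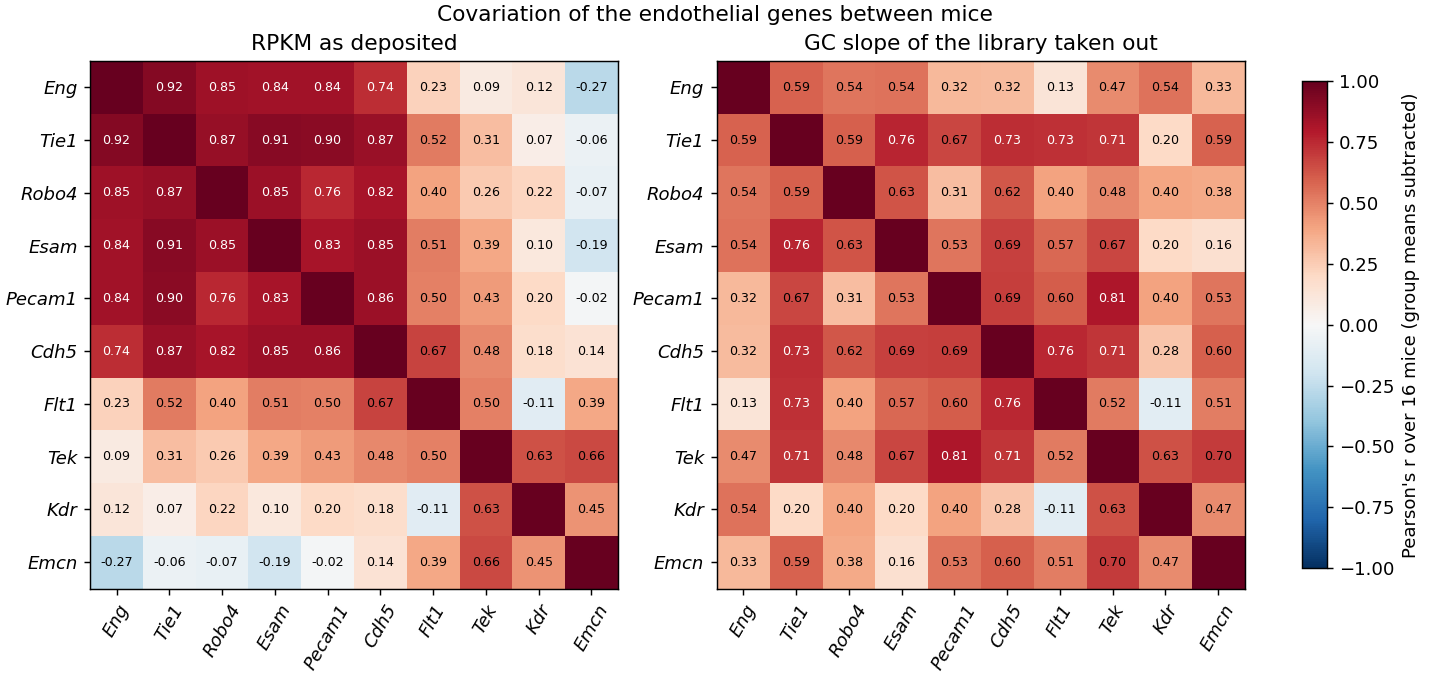
Pearson's r between the 10 genes over 16 mice after subtracting group means, as a colour scale from -1 (blue) to 1 (red) with each value printed, for the RPKM as deposited (left) and with the GC slope of the library taken out (right). The block of 6 genes at the upper left of the left panel (15 pairs, 0.74 to 0.92) gives way on the right to a more even field in which the median over 45 pairs is 0.54.

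The libraries also differed in how much of the GC-rich transcripts they held, and some of the endothelial genes moved with that. For each library a GC slope was fitted, the change in log2 level relative to the other libraries for each 10 points of transcript GC content, over 14774 features with a known transcript. It ran from -0.595 in HLU 4 to 0.396 in Control 5, so some libraries were poor and others rich in GC-rich transcripts. The average slope of the groups differed by 0.00287, beside SDs of 0.353 in control and 0.291 in HLU (exact permutation p = 0.989). Across the 16 mice Eng had r = 0.96 with this slope (permutation p = 1e-05, the smallest that 100000 permutations can give, adjusted p = 0.000247), and Tie1 had 0.88 (permutation p = 0.00011, adjusted p = 0.00103). Pecam1 (0.82), Robo4 (0.79), Esam (0.77) and Cdh5 (0.70) also followed it, with adjusted p up to 0.013. Flt1 (0.20), Kdr (-0.03), Tek (-0.04) and Emcn (-0.37) did not pass, with permutation p of 0.443, 0.899, 0.865 and 0.178. Among all features 25.6% had a positive and 20.4% a negative r with the slope at a permutation p under 0.05. Spearman's rho was 0.71 to 0.95 for the 6 genes that passed and -0.38 to 0.32 for the other 4, and r without the libraries farthest from the median slope (Control 4 and HLU 4) was 0.75 to 0.93 and -0.23 to 0.50.

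**Figure D4:**
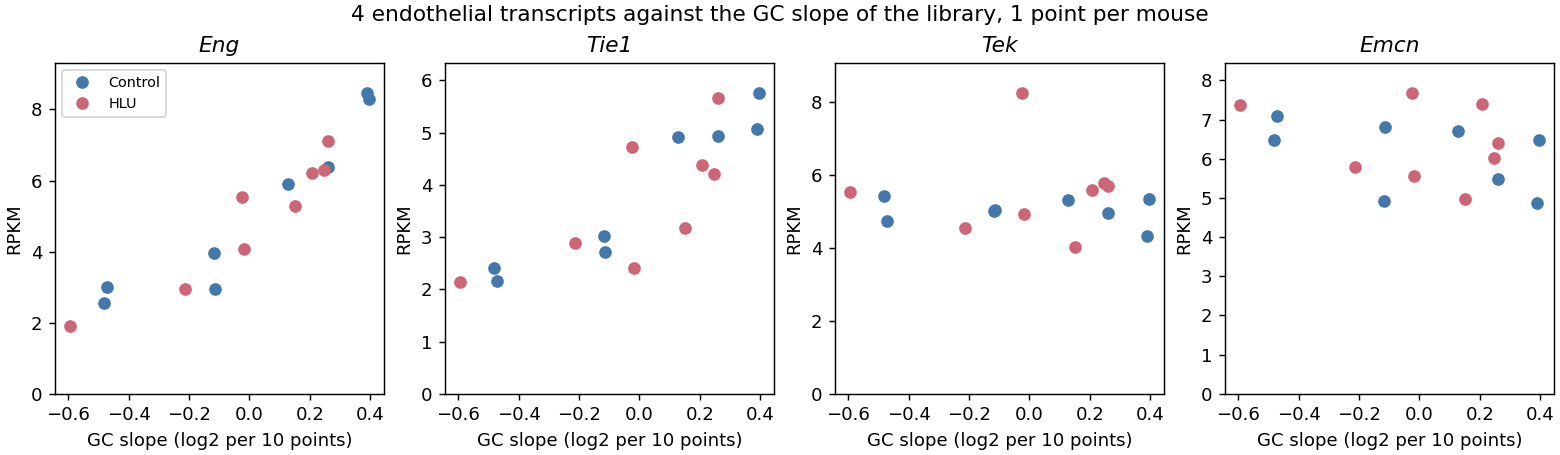
RPKM (vertical axes, from 0) of Eng, Tie1, Tek and Emcn against the GC slope of the library (horizontal axes, log2 change per 10 points of transcript GC), 1 point per mouse, control in blue and HLU in red. Eng and Tie1 climb with the slope (r = 0.96 and 0.88), while Tek and Emcn do not (r = -0.04 and -0.37).

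Over all features the median r with the slope rose with GC content. The slope was fitted to these same features by GC content, so such a rise is built in. The class medians serve only as a background for the endothelial genes. Features with under 45% GC had a median r of -0.54 with the slope (4035 features, Emcn among them), and those between 45 and 50% had -0.20 (4056, with Kdr and Tek). Between 50 and 55% the median was 0.36 (3856, with Pecam1, Cdh5, Flt1, Esam and Robo4), and at 55% or more it was 0.76 (2827, with Tie1 and Eng). Every gene of the set but Flt1 lay above the median of its class. In the class of 50 to 55%, Pecam1 (0.82), Robo4 (0.79), Esam (0.77) and Cdh5 (0.70) lay well above 0.36, and Flt1 (0.20) lay below it, although Pecam1 and Flt1 had nearly the same GC content (50.2% and 50.5%).

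**Figure D5:**
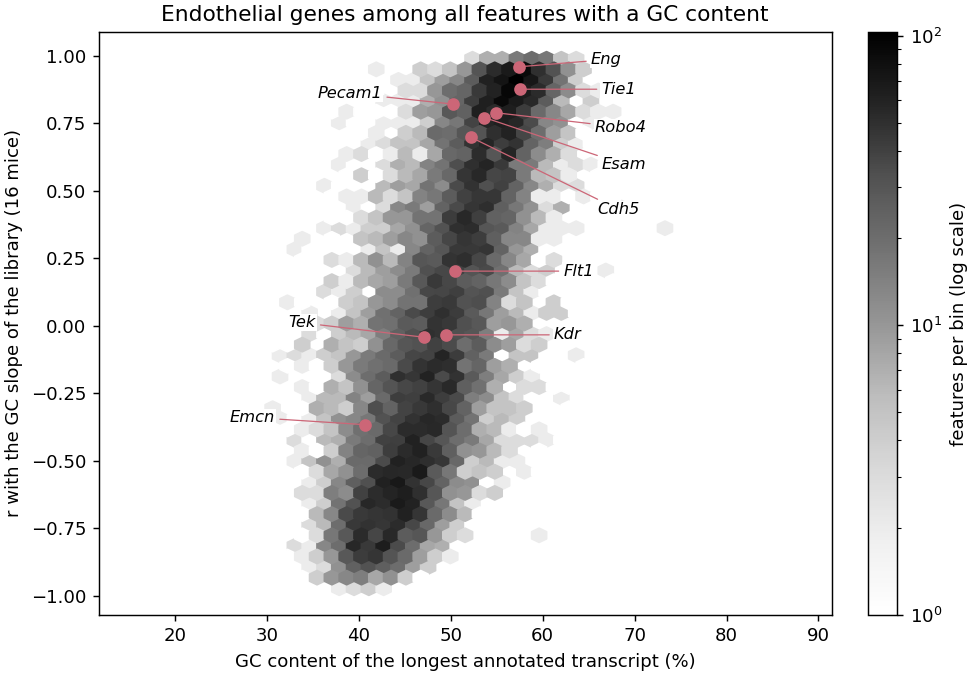
Each feature's r with the GC slope of the library over 16 mice (vertical axis) against the GC content of its longest annotated transcript in percent (horizontal axis), as a density of 14774 features (grey, log scale), with the 10 endothelial genes as red points. Emcn (40.7% GC, r = -0.37) has the lowest r of the set and Eng (57.4% GC, r = 0.96) the highest. The rise of the grey cloud is built in, because the slope was fitted to these features by GC content.

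With the GC slope taken out of every gene, an alternative chosen after the data had been seen, the pairs of genes became more alike. The pairs between the groups of 6 and 3 genes went from a median of 0.13 to 0.48. The 15 pairs within the 6 genes went from 0.85 to 0.59, and the 3 pairs of Kdr, Tek and Emcn stayed at 0.63. Tek and Tie1 went from 0.31 to 0.71, and Eng and Emcn from -0.27 to 0.33. Tek and Cdh5 then had r = 0.71 (permutation p = 0.00651, adjusted p = 0.0815), and Emcn and Cdh5 0.60 (permutation p = 0.0232, adjusted p = 0.119), while Eng and Cdh5 had 0.32 (permutation p = 0.22, adjusted p = 0.378). Tie1 (0.73), Flt1 (0.76), Pecam1 (0.69), Esam (0.69) and Robo4 (0.62) kept a positive r with permutation p up to 0.00866, where 14.1% of features had a positive and 16% a negative r at a permutation p under 0.05. The adjusted p of these 5 genes was 0.07 to 0.0875, above 0.05 but under the 0.1 used for calls of HLU against control. The permutations do not account for the fitted slope. Without the mice then farthest from the median of Cdh5, HLU 2 and HLU 5, r was 0.45 to 0.70 for these 5 genes. It was 0.63 for Tek, 0.47 for Emcn and 0.04 for Eng. Within control mice, r of the 5 genes with Cdh5 was 0.34 to 0.57 (exact permutation p 0.136 to 0.403). Within HLU mice it was 0.79 to 0.86 (exact permutation p 0.00759 to 0.0238), a difference that was not tested. For Eng, r with Cdh5 was -0.34 in control (exact permutation p = 0.435) and 0.84 in HLU (exact permutation p = 0.00573), also not tested against each other. The labels give neither the sequencing lane nor the day of RNA extraction, so the values could not be computed within such batches.

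With the slope as covariate, chosen after the data had been seen, the SE of the change with HLU fell most for the genes that followed the slope. The SE of Eng was 0.10 in place of 0.31 on the log2 scale and that of Tie1 0.13 in place of 0.25, with a log2 fold change of -0.05 for each. For Esam the SE was 0.14 in place of 0.21, and for Pecam1 0.07 in place of 0.10. The 95% interval of Eng was then -0.26 to 0.17. Cdh5 had a log2 fold change of 0.20 (SE 0.09, limma adjusted p = 0.421), short of 1.2-fold, and 0 of the 10 genes passed the unadjusted threshold, where 9.69% of features did (1.53% higher and 8.16% lower). With rescaling and covariate together, Cdh5 stood at 0.30 (limma adjusted p = 0.515) and Robo4 at 0.30 (limma adjusted p = 0.527). Both passed the unadjusted threshold, as did 3.12% of features upwards, 3.97% downwards and 7.09% in all, and both missed the adjusted one. Pecam1 stood at 0.22 (SE 0.08, limma adjusted p = 0.515), short of 1.2-fold.

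The mean of the 10 genes in each mouse was itself tied to the slope (r = 0.79) and to many other genes. The 10 features most like it, by Pearson's r over 16 mice with group means subtracted, were Itgb5 (0.97), Fam20c, Dexi, Sema7a, Col4a1, Mrc2, Npdc1 and Sorcs2 (0.96 each), and Clstn1 and Ltbp3 (0.95 each). All 10 had transcripts of 55.4 to 58.7% GC, and with the slope taken out their r was 0.88 to 0.92. An r of at least 0.7 with the mean was found in 12% of all features. Averaged in the same way, the 28 other pan-endothelial genes had r = 0.99 with the 10 genes, the ligands 0.96, the perivascular genes 0.95 and the coreceptors 0.92. Arterial genes had 0.83, adipocyte genes 0.76, bone genes 0.72 and venous, sinusoidal and lymphatic genes 0.63. Neutrophil genes and stem and progenitor genes had -0.54 each, macrophage genes -0.12, erythroid genes -0.11 and megakaryocyte genes -0.09. These are averages over each list, and single genes spread far more widely. With the mean of the 10 genes, r of single genes ran from -0.78 to 0.93 among the other pan-endothelial genes and from -0.72 to 0.93 among the ligands. Among the perivascular genes it ran from -0.53 to 0.95. For the 10 genes themselves, which are part of that mean, it ran from 0.10 (Emcn) to 0.96 (Tie1). With the slope taken out, again as averages, the other pan-endothelial genes had 0.96, the ligands 0.92 and the coreceptors 0.91. The perivascular genes had 0.88, arterial genes 0.85, bone genes 0.71 and adipocyte genes 0.64. The venous, sinusoidal and lymphatic genes had 0.25. Macrophage genes had -0.42, megakaryocyte genes -0.51, stem and progenitor genes -0.52, neutrophil genes -0.69 and erythroid genes -0.70. These values describe the same 16 libraries and share their depth and base composition.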

How the data were processed

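RNA of femoral cortical bone from 8 control and 8 HLU mice was prepared by the authors as TruSeq v2 libraries, sequenced 8 to a lane on a HiSeq and aligned with TopHat2. The submitters' processing notes name mm9 and DESeq2. Annotation, counter and gene lengths are not given in the sources used here. The deposited values are RPKM, reads divided by gene length and by library size, which leaves differences in base composition and marrow content in the values.

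Groups came from the sample titles. HLU was compared with control by limma 3.58.1 (R 4.3.3, variance trend, no covariate) on log2(RPKM + 0.1), so that fold changes of low genes are understated, over the features averaging 0.5 RPKM or more, with Benjamini-Hochberg adjustment. Calls required a 1.2-fold change, at p under 0.05 unadjusted or under 0.1 adjusted. Single genes were tested by two-sided exact permutation over 12870 splits (smallest p 0.000155), and single groups of 8 by exact permutation over 40320 orders (Python 3.11.15, numpy 2.4.6, scipy 1.17.1, pandas 2.3.3). Figures were drawn with matplotlib 3.10.9. Whole reads were recovered from the RPKM steps for 16973 of 16973 features kept (100% of values within 0.01 of a whole number) and used for depth and for limma's voom. Limits set by reads cover counting error only. Scripts were tested on simulated data, where all reads were recovered for 2000 of 2000 features.

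Of the features, 3887 carry the symbol Rnf135 and were tested but not used by name. Positions, transcripts and GC content (87% of features kept) came from GENCODE M21 on GRCm38, and promoters from RefSeq (7 of the 10 genes matched by symbol). Members and gene lists were chosen with earlier results of these data known. The genes named are the 10 members, up to 3 genes per list and direction with the lowest unadjusted p among those past the threshold, and the 10 features most like the members' mean. 1 gene that this rule names is not reported here. Skeletal muscle genes, fixed as a further list, were not analysed here. The mice are separate animals. Libraries shared lanes, but which mouse was on which lane is not given in the sources used here.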

Additional observations from a re-analysis of the deposited data

Results flagged for a closer look

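In the unloaded mouse HLU 5, Kdr stood at 14.1 RPKM and Tek at 8.25 RPKM, each far above the other 7 HLU mice. The gap to the nearest mouse was 0.538 of the range of the group for Kdr and 0.583 for Tek, past the critical value of Dixon's test for 8 samples, 0.526. Of 20 groups examined (10 genes in control and in HLU) these were the only ones, and chance marks about 1 in 20. The library of HLU 5 held 7838277 reads, fewer than any other unloaded mouse, and its GC slope was -0.0237. Without this mouse the log2 fold change was -0.01 in place of 0.05 for Kdr and 0.03 in place of 0.11 for Tek, and r with Cdh5 was -0.11 in place of 0.18 for Kdr and 0.38 in place of 0.48 for Tek. The part of depth in these values was not tested.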

How the results depend on the processing

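The comparison of HLU with control was repeated under 29 alternatives and the covariation under 24, of which those with the GC slope or without the 3 libraries of lowest slope were chosen after the data had been seen. The median log2 fold change of the 10 genes, 0.09 on the deposited RPKM, ran from 0.03 without HLU 5 to 0.18 with median-of-ratios rescaling, 0.20 with the erythroid and neutrophil covariates and 0.21 with quantile normalization. Leaving out 1 mouse also moved, among others, Flt1 (0.15) to 0.24 without HLU 2, Tek (0.11) to 0.03 without HLU 5 and 0.18 without HLU 3, Robo4 (0.21) to 0.12 without Control 1, 0.14 without Control 2 and 0.13 without Control 6, and Emcn (0.07) to 0.02 without Control 6 or Control 7 and 0.03 without HLU 1, HLU 4 or HLU 5. Of the 10 genes, 1 passed the unadjusted threshold with median-of-ratios rescaling, quantile normalization and voom (Cdh5, at 0.30, 0.33 and 0.30) and 1 with the erythroid and neutrophil covariates (Robo4), and 2 passed with rescaling and GC slope together, beside 0 otherwise. Features past the unadjusted threshold were 996 of 16973 on the deposited RPKM. Of the same 16973 they were 776 with median-of-ratios rescaling, 824 with quantile normalization and 787 with voom. They were 2447 with the erythroid and neutrophil covariates, 1644 with the GC slope and 1204 with rescaling and GC slope together. When 1 mouse was left out they were 588 to 1748 (649 without Control 6, 659 without Control 7, 629 without HLU 1, 588 without HLU 7, 1748 without HLU 2). Features past the adjusted threshold were 1 with no filter on low values, 8 with the erythroid and neutrophil covariates, 1 with voom and 0 to 1 when 1 mouse was left out (1 without HLU 2), by limma. Directions turned for Tie1 (0.04 with median-of-ratios rescaling, 0.05 with quantile normalization, 0.24 with the erythroid and neutrophil covariates, 0.04 with voom, 0.04 with rescaling and GC slope, -0.15 to 0.05 leaving out 1 mouse), for Eng (0.05, 0.05, 0.42, 0.04 and 0.05 under the same alternatives, -0.16 to 0.13 leaving out 1 mouse) and for Esam (0.02, 0.05 and 0.20 under the first 3, 0.02 with rescaling and GC slope, -0.19 to 0.00 leaving out 1 mouse). With the erythroid and neutrophil covariates Kdr stood at -0.01, Tek at -0.00 and Emcn at -0.15, and Kdr ran from -0.01 to 0.09 leaving out 1 mouse. The median r over 45 pairs was 0.38 to 0.55 leaving out 1 mouse (0.38 without HLU 5). Between Kdr and Cdh5 Spearman's rho was -0.04, and r was -0.11 to 0.39 leaving out 1 mouse (-0.11 without HLU 5, -0.04 without HLU 8). Tek passed an unadjusted permutation p of 0.05 with Cdh5 without Control 7 (0.54), without HLU 3 (0.58) and with no centring on groups (0.53). The causes were not tested. Equal replicate numbers in the groups come with no stated link, and deviations of same-numbered mice correlated from -0.17 to 0.51, with 1 of 8 numbers best with its own. With the number as a replicate block 0 of the 10 genes and 1039 features passed the unadjusted threshold, and 0 the adjusted one, by limma. Depth limits Robo4 most, with the fewest reads (86 in 1 mouse).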
